A study of Rattus norvegicus with 10 samples.

Results

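Hippocampal neurons taken from Wistar rats and kept in culture until day 15 in vitro were collected 120 min after a chemical long-term potentiation (cLTP) solution, or after a mock solution, and their messenger RNA was sequenced. The comparison set 2 cLTP libraries of 120 min against 2 mock libraries, called replicate 1 and replicate 2 of each group, which the labels describe as biological repeats. All 11615 genes of the deposited table were members and none was selected for its response; they are the same 11615 genes measured in all 10 libraries of the series, which also holds cLTP groups of 5, 10 and 60 min. Each group, mock included, had received 5-fluoro-2-deoxyuridine and uridine on day 4 against glial growth, and its RNA was depleted of ribosomal RNA and passed over oligo(dT) beads 3 times. The sources used here do not give the collection time of the mock cultures or the composition of the cLTP solution, so time in the dish after treatment and the stimulus cannot be told apart.

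Long-term potentiation is a lasting gain in synaptic strength, and a chemical protocol brings it about across a whole dish rather than at a single pathway. Its lasting phase is known to need transcription. Kinases that carry calcium signals to the nucleus first switch on transcription factor genes, the immediate-early genes, and the factors they encode then act on a later set of genes for secreted proteins, receptors, enzymes and structural proteins. A sample taken 120 min after the stimulus falls in that later phase.

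Levels are given in CPM, a gene's read count relative to the library total, further divided by trimmed-mean (TMM) factors of 0.970 to 1.02. The 4 libraries compared held between 36585716 and 41800477 reads, taken from the step between CPM values, and the 2 libraries of 60 min, used as the nearest earlier time, held 38633168 and 36877657. The 120 min libraries lay at 25.73 and 26.25 on a first principal component with 56.5% of the variance, where mock lay at -10.59 and -12.3 and no library stood apart from its replicate. Replicates differed by an SD of 0.125 (log2) over genes in mock and 0.113 at 120 min. The label calls the cells neurons. Neuronal transcripts were present, but per kilobase of exon Gfap, the intermediate filament of astrocytes, was the gene with rank 3 of all genes in mock (3914 CPM per kb) and Vim, a filament of astrocytes and fibroblasts, had rank 5 (2842 CPM per kb), against rank 88 for Slc17a7, the vesicular transporter of glutamatergic neurons (443 CPM per kb). In such mixed bulk samples, fewer cells of a type and less RNA per cell cannot be told apart.

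At 120 min 33 of 34 immediate-early transcription factor genes, 21 of 28 inflammatory genes and NF-kB targets and 27 of 33 targets of serum response factor and YAP were higher than in mock. The gene lists and their members were chosen with earlier results of these data known. Single genes rose by up to 50.7-fold, reached by the protease inhibitor gene Tfpi2. Of 25 genes of GABA synthesis, transport and receptors 19 were lower (12 without mock replicate 2), with a median log2 difference of -0.27. In limma on log2(CPM + 1) with TMM scaling and a Benjamini-Hochberg adjusted p under 0.05 as the threshold for a call, 2367 genes were higher than in mock (20.4% of those tested) and 1960 were lower (16.9%), 37.3% in all. The sizes were uneven: 244 of the rises reached 2-fold (2.1% of the genes tested), 50 reached 4-fold and 6 reached 16-fold, while 6 of the falls reached 2-fold (0.0517%) and 0 reached 4-fold. The median size of a called change was 1.28-fold upward and 1.2-fold downward, on the log2(CPM + 1) scale; the added 1 makes changes of low genes look smaller. All folds are given on this scale. In each of the 4327 called genes the 120 min libraries and the mock libraries did not overlap. When each library was left out in turn, the lower calls numbered 1246 without 120 min replicate 1, 1106 without 120 min replicate 2 and 1121 without mock replicate 2.

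The called rises took up a larger part of each library. Genes called higher held 22.0% and 21.8% of all CPM in the mock libraries and 28.0% and 28.1% in the 120 min libraries, and genes called lower held 19.0% and 19.2% in mock and 15.6% and 15.5% at 120 min. The 10 genes with the largest gains held 13.3% of the whole gain. Without TMM factors, on library totals alone, the calls split into 1786 higher and 3123 lower (36.4% higher, against 54.7% with TMM), and with upper-quartile factors into 1805 and 3106. The median difference over all genes moved by -0.06 in each. No call changed direction; 1774 of the higher and 1928 of the lower calls were made under all 4 scalings.

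**Figure D1:**
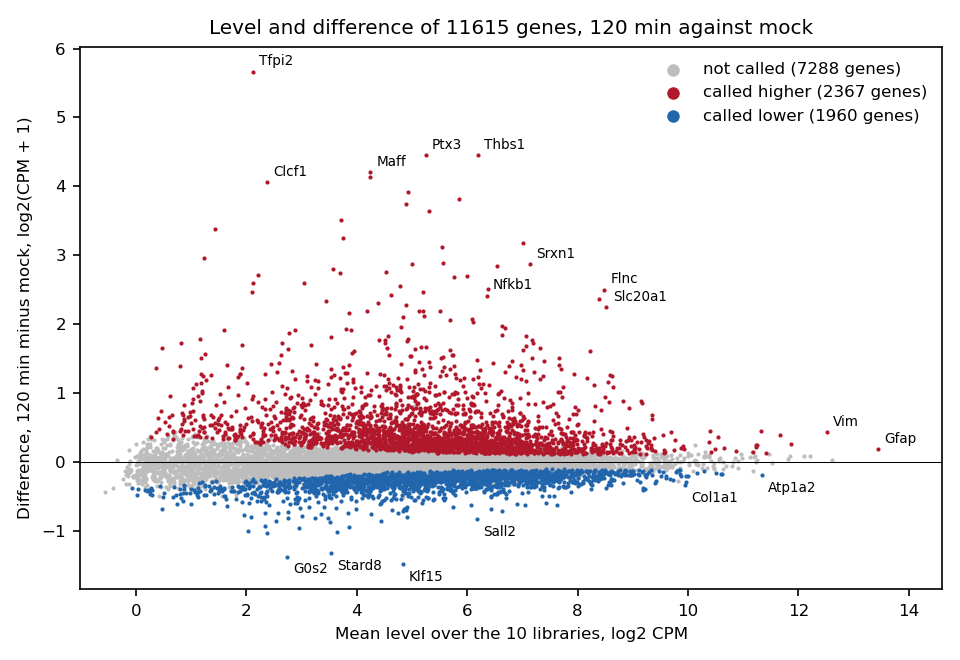
Each of 11615 genes is drawn by its mean level over the 10 libraries (log2 CPM, horizontal) and its difference between 120 min and mock (log2(CPM + 1), vertical), coloured by the limma call. The rises reach 5.66 for Tfpi2, while the furthest fall is that of Klf15 at -1.49.

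The steepest rise was that of Tfpi2 (chromosome 4, 28948343 to 28952765, rn6), a secreted inhibitor of serine proteases. It stood at 0.537 and 1.05 CPM in mock replicates 1 and 2 and at 90.3 and 87.6 CPM at 120 min. Both mock libraries were near the bottom of the measured range and both 120 min libraries far above them (log2 difference 5.66, SE 0.15, adjusted p = 8.0e-11). Ptx3, a secreted pentraxin of innate immunity, was at 14 and 11.9 CPM in mock and at 295 and 311 CPM at 120 min (log2 difference 4.45, adjusted p = 2.2e-11). Clcf1, a cytokine that signals through the receptor of ciliary neurotrophic factor, went from 3.17 and 2.12 CPM to 57.1 and 60.9 CPM. It was still near its mock level at 60 min (4.4 and 4.28 CPM), and its difference between 120 and 60 min was 3.49 on the log2 scale (adjusted p = 4.9e-09).

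Among the other large rises were genes of metabolism, the cytoskeleton and antioxidant defence. Srxn1, which restores oxidised peroxiredoxins, was at 79.1 and 76.5 CPM in mock and 592 and 561 CPM at 120 min (7.33-fold, adjusted p = 9.0e-12). Hk2, a hexokinase that starts glycolysis, was at 16.2 and 19.6 CPM and then 138 and 135 CPM (7.29-fold). Rnd3, an atypical small GTPase that loosens the actin cytoskeleton, went from 56.2 and 55.8 to 422 and 396 CPM (7.19-fold). None of these groups overlapped, as the choice of the largest rises required. All 3 genes were also higher than at 60 min, by 1.76, 1.48 and 2.07 on the log2 scale. The small Maf factor gene Maff (18.4-fold), the chemokine genes Cxcl11 (10.4-fold) and Ccl7 (8.67-fold), the reactive astrocyte gene Serpina3n (7.77-fold) and the membrane protein gene Emp1 (7.38-fold) belonged to the same set of the 20 largest rises.

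**Figure D2:**
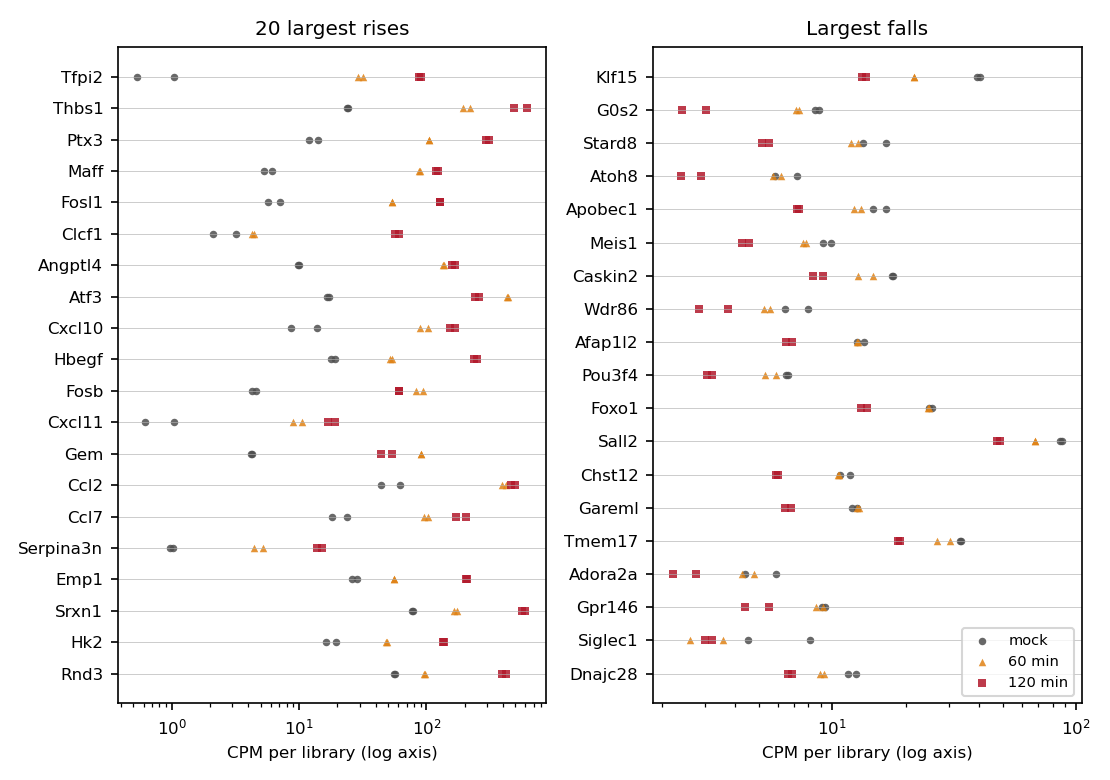
CPM per library on a log axis for the 20 largest rises (left) and the largest falls (right), with 2 points each for mock, 60 min and 120 min. In every row the 120 min points lie to 1 side of both mock points, as the choice of these genes required. The 60 min points lie between mock and 120 min in some genes (Tfpi2, Ptx3) and beyond the 120 min points in others (Atf3, Fosb, Gem).

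Promoter sequence was looked at for the genes that rose most, because AP-1 factors were themselves among them. Any base was allowed at N in TGANTCA, the letters searched as a broad form of the AP-1 site. RefSeq windows of assembly GRCr8 were matched to 9396 of the 11615 genes, and the 250 bases before each annotated start were searched on both strands; a match is a description of the letters and not a binding site. The letters TGANTCA stood in 404 windows of tested genes (4.3%), in 63 of 1543 windows of genes called lower (4.08%), in 105 of 1954 windows of genes called higher (5.37%), in 31 of 198 windows of genes called at least 2-fold higher (15.7%), and in 8 of 34 at 4-fold or more (23.5%). Over all 33469 windows of the table the share was 6.34%. The 8 windows are shown with TGANTCA in capitals, as stretches of 100 bases, 5′ to 3′ on the strand of the gene.

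Tfpi2 (chr4:32941304-32941403, minus strand): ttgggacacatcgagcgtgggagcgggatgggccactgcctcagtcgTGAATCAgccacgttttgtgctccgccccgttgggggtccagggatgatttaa
Cxcl10 (chr14:15988923-15989022, plus strand): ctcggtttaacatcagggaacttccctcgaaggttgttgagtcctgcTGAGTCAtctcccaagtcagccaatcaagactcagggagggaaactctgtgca
Cxcl11 (chr14:15973596-15973695, plus strand): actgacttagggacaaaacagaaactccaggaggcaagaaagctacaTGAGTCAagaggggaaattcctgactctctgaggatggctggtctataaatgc
Ccl7 (chr10:67513975-67514074, plus strand): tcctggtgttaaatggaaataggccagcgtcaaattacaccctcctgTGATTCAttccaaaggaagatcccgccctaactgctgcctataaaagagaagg
Emp1 (chr4:169944095-169944194, plus strand): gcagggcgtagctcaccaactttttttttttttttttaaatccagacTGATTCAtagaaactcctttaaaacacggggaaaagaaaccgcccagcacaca
Srxn1 (chr3:161064703-161064802, plus strand): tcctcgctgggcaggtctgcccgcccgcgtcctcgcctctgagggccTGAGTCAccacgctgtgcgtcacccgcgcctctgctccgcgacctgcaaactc
Il11 (chr1:78098433-78098532, plus strand): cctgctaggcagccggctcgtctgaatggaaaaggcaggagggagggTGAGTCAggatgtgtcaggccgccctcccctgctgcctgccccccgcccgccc
Gbp2 (chr2:234005608-234005707, plus strand): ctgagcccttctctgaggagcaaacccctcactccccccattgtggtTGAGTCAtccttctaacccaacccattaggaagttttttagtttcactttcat

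A match to the NF-kB site stood in 4.33% of tested windows, in 5.06% of those called lower, in 5.99% of those called higher, in 10.1% of those at least 2-fold higher and in 17.6% of those at least 4-fold higher. In the same order of these 5 sets, the cAMP response element TGACGTCA stood in 3%, 2.4%, 4.04%, 4.55% and 2.94% of windows. The CArG box of serum response factor stood in 1.09%, 0.843%, 1.54%, 1.52% and 5.88%. The antioxidant response element TGACNNNGC, which can overlap TGANTCA, stood in 12.5%, 11.3%, 13.6%, 12.6% and 11.8%, and the sterol element TCACNCCAC in 0.99%, 0.778%, 1.28%, 1.01% and 2.94%. One window each is shown for the first 3 of these, with the match in capitals. The capitals of Ptx3 cover 2 overlapping matches.

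Ptx3 (chr2:152797463-152797562, plus strand): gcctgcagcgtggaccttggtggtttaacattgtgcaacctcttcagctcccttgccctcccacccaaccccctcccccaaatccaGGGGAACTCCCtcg
Maff (chr7:112792687-112792786, plus strand): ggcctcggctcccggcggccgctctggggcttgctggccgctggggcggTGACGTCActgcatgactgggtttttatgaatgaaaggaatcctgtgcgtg
Egr2 (chr20:21054470-21054569, minus strand): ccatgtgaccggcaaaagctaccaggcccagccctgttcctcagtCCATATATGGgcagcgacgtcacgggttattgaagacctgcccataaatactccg

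Immediate-early transcription factors were mostly still above mock. Of 34 measured, 33 were higher and 0 lower (median log2 difference 1.01, against -0.01 over all genes), and 17 were at least 2-fold higher. Egr2, a zinc finger factor that also directs myelination, rose 6.05-fold and Crem, a factor of the cAMP response, 3.11-fold; Crem and Egr2 were named after their values were seen. Myc, which drives growth genes, was at 8.65 and 7.94 CPM in mock and 42.5 and 40.3 CPM at 120 min (4.56-fold, adjusted p = 6.6e-10). Jund (1.97-fold), Klf4 (2.06-fold) and the AP-1 partner Fosl2 (3.06-fold), also named after their values were seen, rose as well. Against 60 min the same list held 7 members that were higher and 23 that were lower (all genes tested, 19.8% and 16%), with Nr4a1 lower by 2.68, Egr1 by 1.56 and Fos by 2.33 on the log2 scale, and Klf10 (0.60) and Fosl1 (1.24) higher.

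Of 36 activity-regulated genes of synaptic and signalling effectors 24 were higher and 3 lower (median 0.35), and 9 were at least 2-fold higher; with library totals 5 were lower. Gem, whose GTPase product lowers calcium channel activity, was at 4.24 and 4.19 CPM in mock and 53.9 and 44.1 CPM at 120 min (9.54-fold). Gadd45b, a stress response gene, rose 3.55-fold, the kinase gene Plk2 2.64-fold and Arc, which acts in AMPA receptor endocytosis, 2.5-fold. Nptx2, a secreted pentraxin that gathers AMPA receptors, was at 27.5 and 33.1 CPM in mock and 74 and 95.7 CPM at 120 min, and the granin gene Vgf at 217 and 203 and then 344 and 363 CPM, both named after their values were seen. Against 60 min 13 of the 36 were higher and 6 lower. Over all genes tested the shares against 60 min were 19.8% and 16%, so the lower calls were near the share of all genes.

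Ligands of growth factor and cytokine receptors and the receptors themselves rose in more cases than they fell. Of 53 measured ligand genes 23 were higher and 7 lower (median 0.16), and of 41 receptor genes 19 were higher and 5 lower (median 0.14). Hbegf, a ligand of the epidermal growth factor receptor, was at 19.3 and 17.9 CPM in mock and 237 and 252 CPM at 120 min (12.5-fold, adjusted p = 1.9e-12). The interleukin-6 family gene Il11 went from 2.55 and 2.44 to 17.5 and 19.4 CPM and Fgf2, a fibroblast growth factor, from 22.6 and 23.9 to 48.9 and 47.2 CPM. Both groups stood apart in each of these genes, as in every called gene. The lower ones included Fgf12, Fgf13 and Fgf14, named after their values were seen, which bind sodium channels inside the cell and are not secreted. The count of higher ligand genes was 14 without 120 min replicate 2 and 15 without mock replicate 1, and that of lower ones was 3 or 4 without any 1 of the 4 libraries compared; lower receptor genes numbered 3 without mock replicate 2.

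Among the receptors, several that bind ligands of the interleukin-6 family rose. Il6r, the interleukin-6 receptor, was at 16.6 and 18 CPM in mock and 59.5 and 59.1 CPM at 120 min (3.29-fold, adjusted p = 1.7e-09), and Osmr, the oncostatin M receptor, at 42.4 and 38 and then 119 and 119.8 CPM (2.93-fold). The shared signalling subunit gene Il6st rose 1.15-fold, whereas the leukemia inhibitory factor receptor gene Lifr fell by 0.52 on the log2 scale, both named after their values were seen. Tnfrsf12a, the receptor of the cytokine TWEAK, rose 4.35-fold, the hepatocyte growth factor receptor gene Met 2.41-fold and the interleukin-1 receptor gene Il1r1 1.97-fold. Il6r, Osmr, Tnfrsf12a, Met and Il1r1 were higher than at 60 min as well, by 0.93 (Il1r1) to 1.47 (Tnfrsf12a) on the log2 scale, and Flt1, a receptor of vascular endothelial growth factor that rose 1.48-fold against mock, by 0.50.

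Brakes on the same pathways were also higher. Of 18 phosphatases of MAP kinases and Sprouty proteins, 14 rose and 2 fell (median 0.44). Errfi1, which inhibits the epidermal growth factor receptor, was at 100 and 107 CPM in mock and 318 and 273 CPM at 120 min (2.83-fold, adjusted p = 1.9e-07). Dusp6, a phosphatase of ERK, rose 1.99-fold and Dusp14 1.8-fold, and the 2 that fell were Spry1 (by 0.39 on the log2 scale) and Dusp8 (by 0.38), named after their values were seen. Without 120 min replicate 2 or mock replicate 1 the count of lower members was 1. Among 16 regulators of G-protein signalling and related GTPases, Rgs16 rose 4.82-fold and Rgs17 1.75-fold, while Rgs12 fell by 0.38; 7 were higher and 2 lower, 1 of them without mock replicate 1.

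Inflammatory genes and NF-kB targets rose in 21 of 28 cases and fell in 2 (median 0.86). The NF-kB subunit gene Nfkb1 was at 58.6 and 57.5 CPM in mock and 325 and 302 CPM at 120 min, while at 60 min it had been at 59.8 and 61.4 CPM. Its 60 min values lay close to mock and both 120 min values far above (log2 difference to 60 min 2.35, adjusted p = 1.7e-10). Rela and Nfkb2, other subunits, rose 2.13-fold and 2.54-fold, while Nfkbia and Nfkbiz, inhibitory and nuclear IkB proteins, fell by 0.39 and 0.71 on the log2 scale, all 4 named after their values were seen. Nfkbie, another IkB gene, rose 3.44-fold and the adhesion molecule gene Icam1 2.66-fold. The summed level of microglial markers, cells that can express many of these genes, was 452 and 448 CPM in mock and 364 and 356 CPM at 120 min; its part in these values was not tested.

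Of 33 interferon-responsive genes, 18 rose and 0 fell (median 0.36). Gbp2, a guanylate-binding protein of cell defence, was at 254 and 208 CPM in mock and 1168 and 1200.4 CPM at 120 min (5.14-fold, adjusted p = 2.0e-09), with 256 and 254 CPM at 60 min. Stat3, the main transducer of the interleukin-6 family, rose 2.24-fold to 657 and 679 CPM from 305 and 290.4 CPM, and Ifih1, a sensor of double-stranded RNA, 2.3-fold. The inducible proteasome subunit genes Psmb8, Psmb9 and Psmb10 rose 1.31-fold, 1.33-fold and 1.29-fold. Mock replicates differed in this list: its summed level was 3815 CPM in mock replicate 1 and 3056 CPM in replicate 2, against 5034 and 5293 CPM at 120 min, and without mock replicate 2 the calls were 11 higher and 5 lower.

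Targets of serum response factor and of YAP, 2 regulators that respond to actin and to cell tension, rose in 27 of 33 measured genes and fell in 0 (median 0.36). The summed level of the list was 7410.5 and 7514 CPM in mock and 9291 and 9851 CPM at 120 min. Itga5, the integrin subunit that binds fibronectin, was at 15.3 and 13.7 CPM in mock and 100.5 and 107 CPM at 120 min (6.78-fold, adjusted p = 2.9e-10). Thbs1, a matrix protein of both this and the matrix list, went from 24.4 and 23.9 to 487 and 617 CPM. The focal adhesion genes Zyx (1.8-fold) and Actn1 (1.69-fold), the myosin light chain gene Myl12a (1.47-fold) and Srf itself (1.51-fold) rose with them. Flnc, a filamin that crosslinks actin and is outside the list, was at 233 and 253 CPM and then 1322 and 1439.8 CPM (5.66-fold). Summed markers of vascular cells and fibroblasts, which express many of these genes, were at 2464 and 2631 CPM in mock and 2304 and 2123 CPM at 120 min, and their part was not tested. Of this list 21 members were higher than at 60 min and 1 lower.

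Proteases that work outside the cell rose beside their inhibitors. Of 40 such genes 16 were higher and 4 lower (median 0.06), and 9 were at least 2-fold higher. Adamts1, a secreted metalloprotease, was at 21.4 and 21 CPM in mock and 147 and 136 CPM at 120 min (6.41-fold, adjusted p = 9.6e-11). Plau and Plat, the plasminogen activators, rose 2.68-fold and 1.61-fold, and Plaur, the cell surface receptor of Plau, 3.46-fold, all 3 named after their values were seen. The metalloprotease gene Adamts9 rose 2.43-fold, and the metalloprotease inhibitors Timp1 and Timp3 3.84-fold and 1.61-fold. The lower calls numbered 0 without 120 min replicate 2 or mock replicate 2, and 2 without either of the others.

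Of 59 collagens, laminins and other matrix genes 13 were higher and 7 lower (median 0.02, and -0.04 with library totals), shares of 22.0% and 11.9% beside 20.4% and 16.9% of all genes. Tnc, tenascin C, was at 248 and 246 CPM in mock and 535 and 618 CPM at 120 min (2.33-fold), and Thbs2 rose 4.17-fold. Acan, the core protein of perineuronal nets, rose from 8.19 and 7.35 to 13.1 and 16.3 CPM, while Hapln1, the link protein of the same nets, fell from 68.3 and 70.5 to 53 and 48.8 CPM. Of 17 integrin genes 5 were higher and 2 lower (median -0.10). Itgb8 rose 1.98-fold and Itga6 1.63-fold beside Itga5, and the leukocyte subunit gene Itgal fell by 0.44 on the log2 scale. Without mock replicate 2 the lower matrix genes numbered 3 and without 120 min replicate 2 they numbered 4, while lower integrin genes numbered 4 without 120 min replicate 1.

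Genes that make ribosomes rose by small amounts and in large number. Of 66 ribosome biogenesis and nucleolar genes 42 were higher and 1, Gnl3l, was lower, a call lost without any 1 of the 4 libraries compared (63.6% and 1.52%, median 0.26), and with library totals the counts were 35 and 1. None was at least 2-fold higher. Wdr43, a nucleolar protein of the small subunit processome, was at 55.2 and 55.6 CPM in mock and 104 and 108 CPM at 120 min (1.9-fold, adjusted p = 1.2e-08). Polr1b, a subunit of the polymerase that transcribes ribosomal RNA, went from 13.3 and 13.7 to 22.1 and 22.3 CPM, and Ddx21, a nucleolar helicase, from 117 and 114 to 181 and 185 CPM. Neither pair overlapped, as in every called gene. Against 60 min 41 members of this list were higher and 1 lower.

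Translation genes showed the same direction in fewer cases. Of 60 initiation and elongation factors 23 were higher and 4 lower (median 0.10), led by Eif1a at 2.18-fold and by Eif4a1, the helicase of cap-dependent initiation, which went from 432 and 438 to 610.3 and 612 CPM. The cap-binding factor gene Eif4e rose 1.28-fold. Of 21 aminoacyl-tRNA synthetase genes 10 were higher and 0 lower (median 0.15), Kars among them at 1.28-fold. The 76 genes of ribosomal proteins had 12 higher and 0 lower calls (15.8%, under the 20.4% of all genes), with Rpl36 higher by 0.32 on the log2 scale; 2 calls were made with library totals, and 1 to 4 without any 1 of the 4 libraries compared. Reads of ribosomal protein genes can be shared with near-identical copies, so these values are uncertain. For initiation and elongation factors the higher calls numbered 14 without 120 min replicate 2 and 15 without mock replicate 2, and the lower calls 1 or 2 without any 1 of the 4 libraries compared.

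Of 32 antioxidant genes of the NRF2 programme and metallothioneins, 17 rose and 0 fell (median 0.15). The summed level of the list was 12001 and 12026 CPM in mock and 14684 and 14769 CPM at 120 min. Txnrd1, thioredoxin reductase, was at 199 and 191 CPM in mock and 469.7 and 473 CPM at 120 min (2.41-fold, adjusted p = 2.4e-10). Hmox1, haem oxygenase, rose 2.47-fold, Gclc, an enzyme of glutathione synthesis, 1.46-fold and Nfe2l2, which encodes NRF2 itself, 1.33-fold. The metallothionein gene Mt1a rose 1.55-fold. With library totals the calls were 13 higher and 1 lower.

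Chaperone genes rose in 20 of 45 cases and fell in 3 (median 0.14). The shares higher and lower were 44.4% and 6.67%, beside 20.4% and 16.9% of all genes. They were 51.2% and 4.88% for genes of the ATF4 and unfolded protein responses. For p53 targets and regulators of apoptosis they were 31.4% and 17.1%, the lower share being close to that of all genes. The small heat shock protein genes led: Hspb8 was at 81.3 and 89 CPM in mock and 246 and 226 CPM at 120 min (2.75-fold, adjusted p = 2.2e-09), and Hspb1 at 272 and 273 and then 528 and 518 CPM. Their partner Bag3, a cochaperone of selective autophagy, rose 2.27-fold, and Cryab, another small heat shock protein, 1.89-fold. Of 41 genes of the ATF4 and unfolded protein responses 21 were higher and 2 lower (median 0.13), with Atf4 at 1.51-fold, Xbp1 at 1.29-fold and Ppp1r15a, which reverses the phosphorylation of eIF2α, at 2.53-fold; 13 were higher without 120 min replicate 2, and 1 was lower without that library, either mock library or 10 min replicate 1. Among 35 p53 targets and regulators of apoptosis 11 were higher and 6 lower, the inhibitors of apoptosis Birc2 (2.46-fold) and Birc3 (3.82-fold) among the higher, and 3 were lower without 120 min replicate 2.

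Of 42 genes of sterol and fatty acid synthesis 19 rose and 4 fell (median 0.11). Idi1, an isomerase that makes the building blocks of sterols, was at 132 and 147 CPM in mock and 208 and 211 CPM at 120 min (1.5-fold, adjusted p = 2.7e-06), and Cyp51, a demethylase of sterol synthesis, at 437 and 453 and then 545 and 556 CPM (1.24-fold). The lower calls numbered 0 without mock replicate 2 and 1 when 120 min replicate 2 was dropped. Of 30 genes of glucose uptake and glycolysis 10 were higher and 3 lower: the glucose transporter gene Slc2a1 rose 1.59-fold and Ldha, lactate dehydrogenase, 1.31-fold, while Txnip, an inhibitor of glucose uptake, fell by 0.28 on the log2 scale. The higher calls numbered 5 without 120 min replicate 2 or mock replicate 1 and 6 without 120 min replicate 1, and the lower calls 5 without either 5 min library; with library totals 7 were higher and 7 lower. Of 74 subunits of oxidative phosphorylation 1 was higher and 4 lower in the TMM fit, and 0 and 19 with library totals; without 120 min replicate 2 or a mock library 1 was lower, and 0 were higher without a 120 min library or mock replicate 1.

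**Figure D3:**
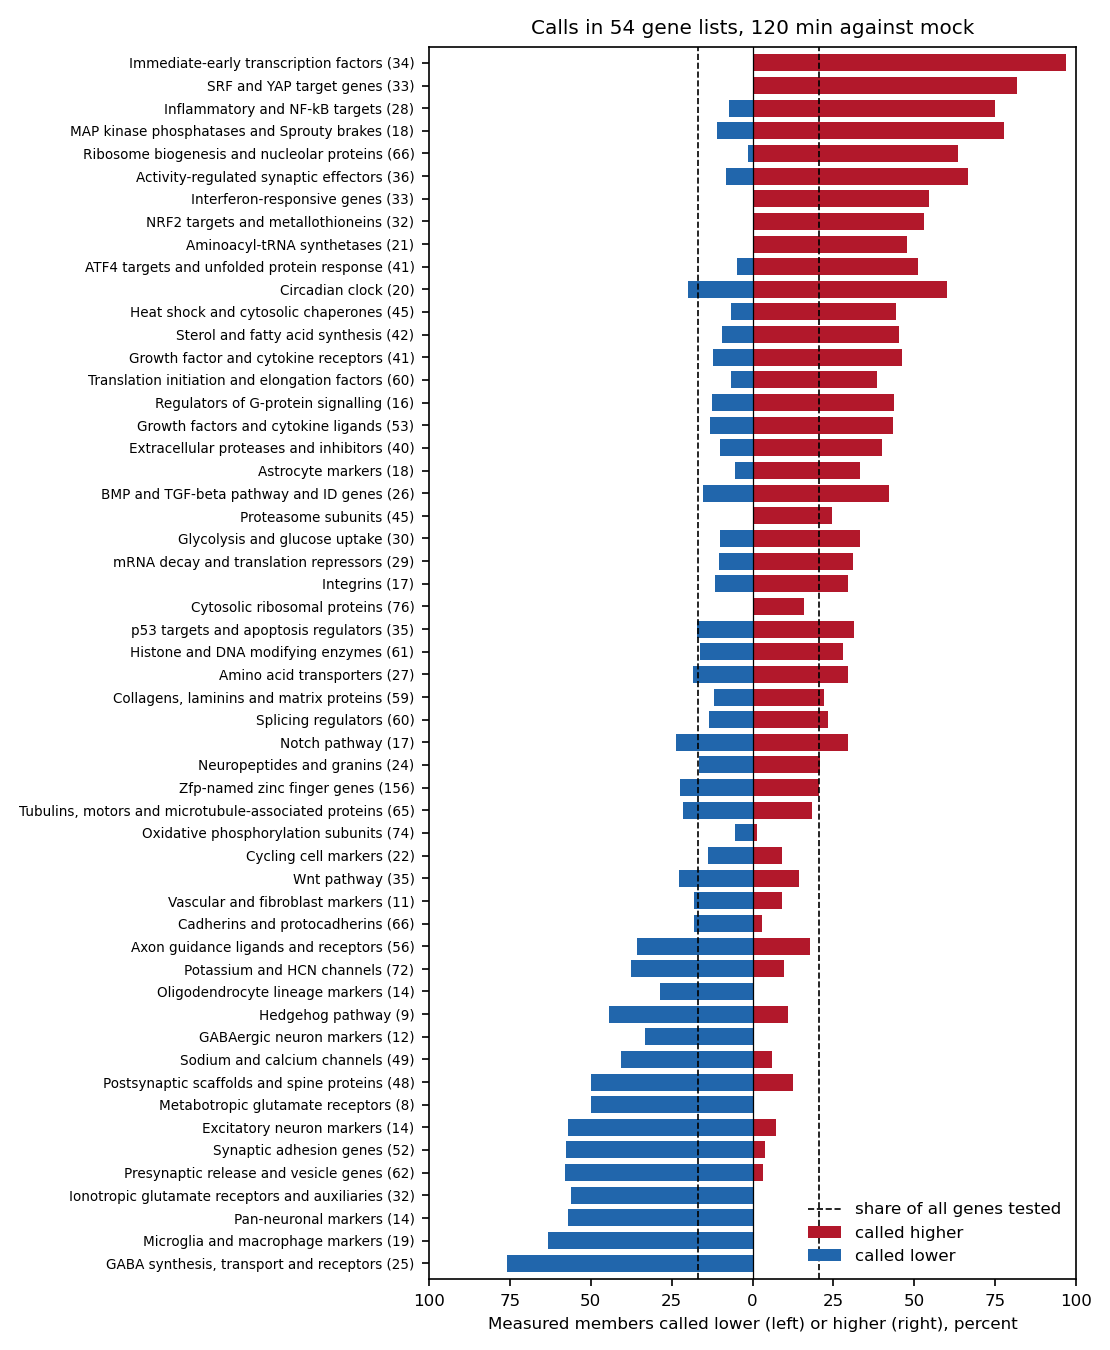
For each of 54 gene lists (number of measured members in brackets) the bars give the percent of members called higher (right) and lower (left) at 120 min against mock, and the dashed lines give the 20.4% and 16.9% of all genes. Lists of transcription factors, inflammation, actin and ribosome biogenesis extend to the right, and those of synapses, neurons and microglia to the left.

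The falls were smaller. Klf15 (chromosome 4, 122365093 to 122377688, rn6), a Krüppel-like factor induced by glucocorticoids in many tissues, was at 39.2 and 40.3 CPM in mock and 13.3 and 13.7 CPM at 120 min. Both 120 min libraries lay far below both of mock, with 60 min between the groups at 21.7 and 21.7 CPM (log2 difference -1.49, SE 0.06, adjusted p = 1.8e-09). G0s2, an inhibitor of triglyceride lipase, was at 8.49 and 8.83 CPM in mock and 3.05 and 2.42 CPM at 120 min, and Stard8, a GTPase-activating protein, at 13.4 and 16.6 and then 5.14 and 5.53 CPM. The forkhead factor gene Foxo1, a mediator of insulin signalling, went from 25.6 and 25 to 13.9 and 13.1 CPM. The homeobox gene Meis1 fell by 0.96, the POU factor gene Pou3f4 by 0.86, the zinc finger gene Sall2 by 0.84, the adenosine receptor gene Adora2a by 0.80 and Gpr146, another G-protein-coupled receptor, by 0.78 on the log2 scale. All 9 were also lower than at 60 min, by 0.49 (Sall2) to 1.14 (G0s2) on that scale.

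Genes of inhibitory and excitatory synapses fell in large number and by small amounts. Of 25 genes of GABA synthesis, transport and receptors 19 were lower and 0 higher (median -0.27). Gabbr2, a GABA-B receptor subunit, was at 234 and 244 CPM in mock and 186 and 184 CPM at 120 min (log2 difference -0.37, SE 0.04, adjusted p = 3.3e-05). Its partner gene Gabbr1 fell by 0.30 on the log2 scale, the GABA-A receptor genes Gabra2 and Gabra5 by 0.37 and 0.35, and the synthesis enzyme gene Gad2 by 0.36. Of 32 ionotropic glutamate receptor genes and their auxiliaries 18 were lower and 0 higher (median -0.23). Gria2, the AMPA receptor subunit that sets calcium permeability, was at 1001 and 977 CPM in mock and 847 and 860.1 CPM at 120 min, and Grin1, the obligate NMDA receptor subunit, at 294 and 300.3 and then 256 and 250.01 CPM. Neither pair overlapped, as in every called gene, and the differences were -0.21 and -0.23 on the log2 scale. Of 8 metabotropic glutamate receptor genes 4 were lower, Grm5 among them by 0.28.

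Of 62 presynaptic genes 36 were lower and 2 higher (median -0.20). Syn1, a synapsin that tethers vesicles, was at 158 and 154 CPM in mock and 122 and 127 CPM at 120 min, and Rab3a, a GTPase of vesicle release, at 339.9 and 352 and then 291 and 291 CPM. Snap25, a SNARE protein of vesicle fusion, fell by 0.22 and the vesicle protein gene Sv2b by 0.29 on the log2 scale. Sypl1, a relative of synaptophysin found in many tissues, and the synaptotagmin gene Syt4, named after its value was seen, were the 2 that rose, 1.34-fold and 1.22-fold. Of 48 postsynaptic genes 24 were lower and 6 higher (median -0.16): the scaffold gene Shank1 fell by 0.49 and the kinase gene Camk2a by 0.30. The 6 higher were Arc, Sipa1l2, Baiap2, Dlg1, Homer1 and Synpo, with Sipa1l2 going from 68.3 and 73.2 to 144 and 142 CPM.

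Synaptic adhesion and channel genes followed. Of 52 synaptic adhesion genes 30 were lower and 2 higher (median -0.19), where Slitrk3, an organiser of inhibitory synapses, fell by 0.51 and Nrxn2, a neurexin, by 0.26, and Lrrc4 and Lrfn4, both leucine-rich repeat proteins that bind PSD-95, rose 1.49-fold and 1.44-fold. Of 72 potassium and HCN channel genes 27 were lower and 7 higher (median -0.15). Kcnk10, a tandem-pore potassium channel gated by stretch and lipids, was at 31.1 and 29.3 CPM in mock and 98.5 and 97.5 CPM at 120 min (3.18-fold, adjusted p = 3.3e-09), at 29.2 and 31 CPM at 60 min, and Kcnt1, a sodium-activated channel, rose from 9.0 and 9.5 to 18.4 and 20.3 CPM. Kcnj10, the inward rectifier of astrocytes, fell from 41.2 and 36.7 to 27.4 and 26.8 CPM. Of 49 genes of sodium, calcium and Trp channels and calcium pumps 20 were lower and 3 higher (median -0.19), among them Cacna1c, the L-type channel, lower by 0.38, and Atp2b2, a calcium pump, by 0.39.

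Neuron markers moved with these lists, but some genes are members of both and are counted again here. Snap25 and Syn1 are also presynaptic members, Camk2a is also a postsynaptic member and Gad2 is also in the GABA list. Of 14 pan-neuronal markers 8 were lower and 0 higher (median -0.21), and their summed level was 4312 and 4496 CPM in mock and 3779 and 3957 CPM at 120 min. Of 14 markers of excitatory neurons 8 were lower and 1 higher, with a summed level of 1674 and 1756 CPM in mock and 1395 and 1421 CPM at 120 min; Neurod6, a transcription factor of pyramidal neurons, fell from 126 and 136 to 84.7 and 87 CPM. Of 12 markers of GABAergic neurons 4 were lower and 0 higher, with sums of 1166 and 1222 CPM in mock and 1015 and 1045 CPM at 120 min. In each of these 3 marker sums the groups did not overlap, and the part of the markers in the falls of synaptic genes was not tested.

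The counts of lower synaptic genes depended on single libraries. Without mock replicate 2 there were 12 lower GABA genes, 10 ionotropic and 2 metabotropic glutamate receptor genes, 14 postsynaptic, 20 presynaptic, 13 synaptic adhesion and 9 sodium and calcium channel genes. Without 120 min replicate 1 there were 20 presynaptic, 15 synaptic adhesion and 11 sodium and calcium channel genes, and without 120 min replicate 2 there were 23, 19 and 13, with 11 ionotropic receptor genes. Sypl1 and Syt4 were not both called without 120 min replicate 2, where 1 presynaptic gene was higher, and 1 sodium or calcium channel gene was higher without either 120 min library or mock replicate 2. The lower markers of GABAergic neurons numbered 7 without either 5 min library, and the higher marker of excitatory neurons was lost without 120 min replicate 2 or mock replicate 1, with 2 without 120 min replicate 1. With library totals each of these lists except the metabotropic receptors held more lower members, for example 22 of 25 GABA genes and 47 of 62 presynaptic genes.

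**Figure D4:**
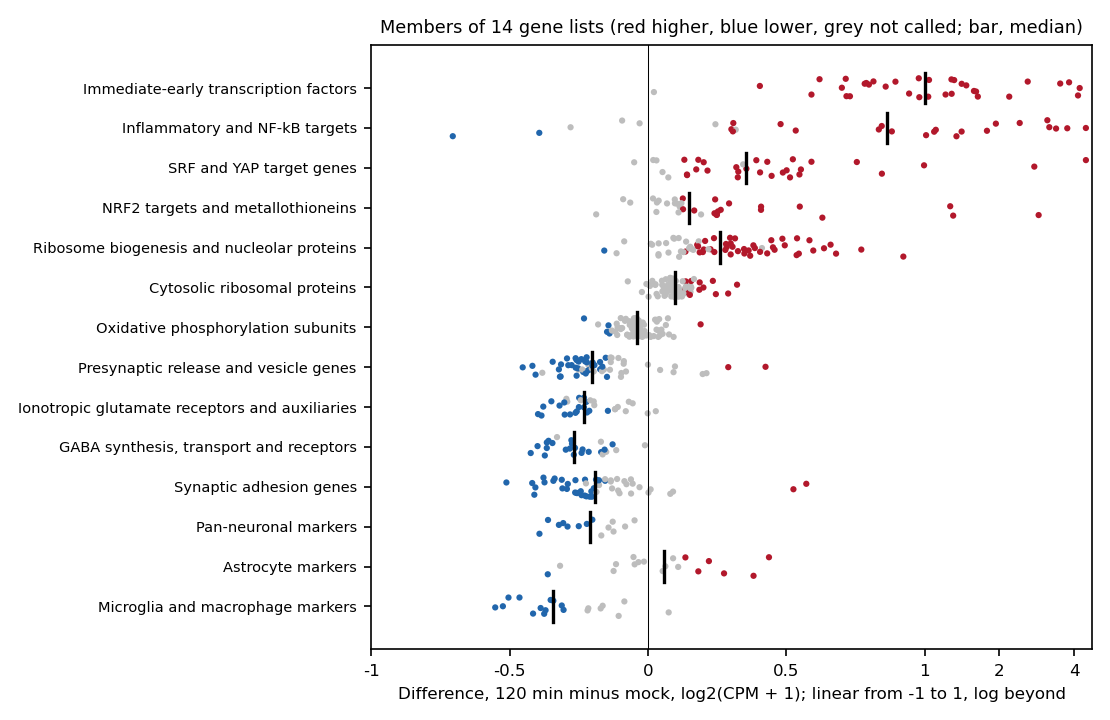
Each point is a gene of 1 of 14 lists, placed by its difference between 120 min and mock (log2(CPM + 1), linear from -1 to 1 and logarithmic beyond), with the list's median as a bar. Members of the synaptic and microglial lists crowd just below 0 (list medians -0.19 to -0.34), while the immediate-early and NF-kB lists reach the far right with Maff at 4.20 and Ptx3 at 4.45.

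Markers of microglia had the lowest median of the 8 cell type lists. Of 19 measured 12 were lower and 0 higher (median -0.34), and the summed level was 452 and 448 CPM in mock and 364 and 356 CPM at 120 min. The complement gene C1qa was at 57.4 and 59 CPM in mock and 40 and 40.3 CPM at 120 min, and Ctss, a lysosomal protease, at 41.9 and 37.3 and then 28.2 and 25.2 CPM. Neither pair overlapped, as in every called gene. Csf1r, the receptor on which microglia depend, fell by 0.37 on the log2 scale. Of 14 oligodendrocyte markers 4 were lower and 0 higher, among them Olig1 by 0.29 and Myrf, a myelin factor, by 0.42.

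Astrocyte markers gave no single direction across scalings. Of 18 measured 6 were higher and 1 lower with TMM (median 0.06) and 4 and 3 with library totals (median -0.01); without 120 min replicate 1 the calls were 3 and 3, without either mock library 3 were higher, and without either 5 min library 2 were lower. The summed level was 32394 and 32461 CPM in mock and 36648 and 34919.6 CPM at 120 min. Gfap itself was at 10473 and 10568 CPM in mock and 12274 and 11609 CPM at 120 min (1.13-fold, adjusted p = 0.023); the call was lost with library totals and upper-quartile factors and in 3 of 10 refits without 1 library. Sox9, a glial transcription factor, rose 1.35-fold and Clu, a secreted chaperone, 1.3-fold, while Atp1b2, a sodium pump subunit of astrocytes, fell by 0.36. Vim was at 5195 and 5014 CPM in mock and 6854 and 6869.7 CPM at 120 min. Among 11 vascular and fibroblast markers Col1a1, a collagen of fibroblasts, fell by 0.34 and Pdgfrb, a pericyte receptor, by 0.52. Flt1 of the same list rose 1.48-fold. The shares of this list called higher and lower were 9.09% and 18.2%, beside 20.4% and 16.9% of all genes. For cycling cell markers both shares, 9.09% and 13.6%, were under those of all genes. Of 22 cycling cell markers 2 were higher, Pcna and Mcm4, and 3 lower, with Mki67 lower by 0.40; 1 was lower without 120 min replicate 2.

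Pathways of development moved in mixed ways, beside 20.4% higher and 16.9% lower calls over all genes. The shares were 42.3% and 15.4% in the BMP and TGF-beta list and 29.4% and 23.5% in the Notch list. They were 11.1% and 44.4% in the Hedgehog list and 14.3% and 22.9% in the Wnt list. In the BMP and TGF-beta list 11 of 26 genes were higher and 4 lower. The corepressor genes Tgif1 and Tgif2 rose 2.91-fold and 2.36-fold and the signal transducers Smad1 and Smad9 1.72-fold and 1.81-fold. Of the ID genes, which block basic helix-loop-helix factors, Id1 rose from 26.4 and 25.7 to 51 and 45.3 CPM and Id2 fell from 107 and 103 to 68 and 59.9 CPM. In the Notch list Hey2, a target repressor, rose 2.04-fold and Nrarp, an inhibitor of Notch, was 6.04-fold above mock although lower by 2.56 than at 60 min on the log2 scale, while the receptor gene Notch2 fell by 0.28. Of 9 Hedgehog genes Gli2 rose 1.9-fold and 4 fell, the receptor gene Ptch1 by 0.46; of 35 Wnt genes 5 were higher and 8 lower, with the ligand gene Wnt7a lower by 0.55 and the receptor gene Fzd6 1.53-fold higher. Higher Wnt genes numbered 3 without any 1 of the 4 libraries compared, and lower ones 3 to 5 without mock replicate 2 or either 120 min library. Lower Notch genes numbered 2 without 120 min replicate 2 or mock replicate 2, and lower BMP and TGF-beta genes 2 without mock replicate 1.

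Clock genes were called in 16 of 20 cases, 12 higher and 4 lower. These were shares of 60% and 20%, beside 20.4% and 16.9% of all genes. With library totals 9 were higher and 5 lower. Arntl, which encodes the core activator BMAL1, was at 44.8 and 41.9 CPM in mock and 75.5 and 83.1 CPM at 120 min (1.81-fold), and the repressor genes Cry1 and Per1 rose 1.79-fold and 1.49-fold. The lower members, chosen for naming after their values were seen, were the output factors Dbp and Tef, Per3 and the receptor gene Rorb, with Dbp lower by 0.46 on the log2 scale. Arntl and Cry1 were higher than at 60 min, by 0.95 and 0.77, and Per1 was lower by 0.86. Without 120 min replicate 2 or mock replicate 2, 2 clock genes were lower.

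Regulators of chromatin and RNA were called in both directions, as all genes were (20.4% higher and 16.9% lower). The shares were 27.9% and 16.4% for histone and DNA modifying enzymes, 23.3% and 13.3% for splicing regulators and 20.5% and 22.4% for Zfp genes. Of 61 histone and DNA modifying enzymes 17 were higher and 10 lower with TMM and 7 and 14 with library totals; Dot1l, the methylase of histone H3 lysine 79, rose 2.13-fold and Kdm6b, a demethylase of lysine 27, 1.96-fold. Of 60 splicing regulators 14 were higher and 8 lower with TMM and 10 and 18 with library totals. Ptbp1, a splicing repressor low in neurons, rose from 120.2 and 108 to 175 and 170.1 CPM and Elavl4, a neuronal RNA-binding protein, fell from 51.4 and 50.5 to 38.2 and 38.9 CPM. Of 156 zinc finger genes named Zfp 32 were higher and 35 lower. Zfp593 rose 3.41-fold and Zfp532 fell by 0.62 on the log2 scale. Against 60 min 64 of the 156 were higher and 19 lower, beside 19.8% and 16% of all genes tested. Without any 1 of the 4 libraries compared 7 or 8 histone and DNA modifying enzymes were higher, without 120 min replicate 2 or a mock library 4 to 6 were lower, and without 120 min replicate 2, 21 Zfp genes were higher. For splicing regulators 9 were higher when replicate 2 of either group was left out, 3 to 5 lower without any 1 of the 4 libraries, and 13 lower without either 5 min library.

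Axon guidance genes were lower in 20 of 56 cases and higher in 10 (13 lower without mock replicate 2), and cadherins and protocadherins lower in 12 of 66 and higher in 2 (5 lower without 120 min replicate 1, 6 without mock replicate 2). Of 65 tubulin, motor and microtubule-associated genes 12 were higher and 14 lower; without 120 min replicate 1 or mock replicate 2 there were 6 higher, and without a library of 120 min or mock replicate 2 there were 4 to 8 lower. Of 24 neuropeptide and granin genes 5 were higher and 4 lower (20.8% and 16.7%, beside 20.4% and 16.9% of all genes). There were 3 higher without 120 min replicate 2, 2 lower without 120 min replicate 1 and 7 lower without either 5 min library. The shares higher and lower were 17.9% and 35.7% for axon guidance genes and 3.03% and 18.2% for cadherins and protocadherins. They were 18.5% and 21.5% for tubulin, motor and microtubule-associated genes and 24.4% and 0% for proteasome subunits. For amino acid transporters they were 29.6% and 18.5%, and for mRNA decay genes 31.0% and 10.3%. With library totals 6 tubulin, motor and microtubule-associated genes were higher and 27 lower. Cadherins and protocadherins then had 2 higher and 22 lower calls, axon guidance genes 8 and 26, and neuropeptide and granin genes 4 and 7. Amino acid transporters and mRNA decay genes each had 7 higher and 7 lower calls with that scaling. Of 45 proteasome subunits 11 were higher and 0 lower (3 to 6 higher without any 1 of the 4 libraries compared, and 6 higher and 2 lower with library totals). Of 27 amino acid transporters 8 were higher and 5 lower (2 or 3 lower without 120 min replicate 2 or a mock library). Of 29 genes of mRNA decay 9 were higher and 3 lower, with 0 or 1 lower without any 1 of the 4 libraries compared and 5 lower without either 5 min library.

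Long genes were lower more often than short genes. Among 1571 genes that span up to 5 kb of the genome 22.3% were higher and 11.7% lower, and among 498 genes of 200 to 500 kb 8.03% were higher and 35.3% lower; among 196 genes over 500 kb the shares were 7.14% and 32.7%. The median span was 33.4 kb for genes called lower, 19.8 kb for genes called higher, 15.2 kb for those at least 2-fold higher and 22.1 kb for all genes. In genes that belonged to no list the share of lower calls went from 12.1% (up to 5 kb) to 32.1% (200 to 500 kb). With library totals the shares of lower calls in these 2 classes were 17.8% and 52.6%. Exonic length moved with it: 6.12% of genes with up to 1 kb of exon and 28.3% of those over 8 kb were lower. The higher shares in these 2 classes were 14.8% and 16.2%, and 22.6% for 2 to 3 kb of exon. Calls in either direction were thus fewer in the class of up to 1 kb, and the part of read depth in this was not tested. Span, exonic length and membership in synaptic lists go together, and their separate parts in these shares were not tested.

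**Figure D5:**
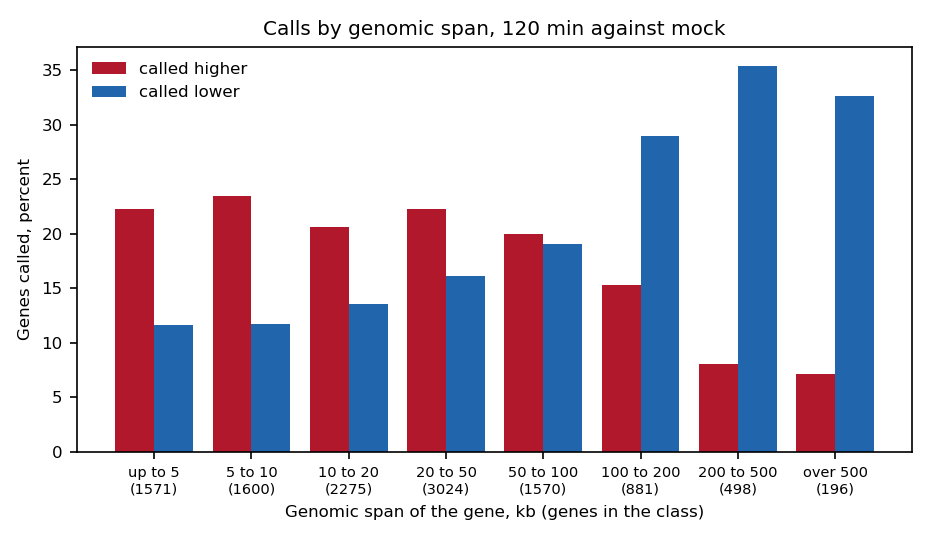
Percent of genes called higher and lower at 120 min against mock in 8 classes of genomic span in kb (number of genes in brackets). The share of lower calls is 11.7% in the shortest class and 35.3% for spans of 200 to 500 kb, and the share of higher calls is 22.3% and 8.03% in the same classes.

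Tested directly against 60 min, 2296 genes were higher at 120 min and 1864 lower (35.8% of those tested, 19.8% and 16%), of which 129 and 43 changed by 2-fold or more. With library totals the split turned to 2013 higher and 2295 lower, and with upper-quartile factors to 1963 and 2440. The lower calls numbered 1114 without 120 min replicate 1, 1095 without 120 min replicate 2 and 1207 without 60 min replicate 2. This contrast shares the 120 min libraries with the one against mock and none of the mock libraries. Gbp2 (2.21), Itga5 (2.21), Flnc (2.13), Baz1a (2.04), a chromatin remodeller, and Slc20a1 (1.83), a phosphate transporter, were among the higher on the log2 scale. Flnc was at 325 and 304 CPM at 60 min and Slc20a1 at 338 and 340.2 CPM, beside 1322 and 1439.8 and 1222 and 1187 CPM at 120 min. Socs3, a brake on cytokine receptors, was lower by 2.45, the clock repressor gene Bhlhe40 by 1.72 and Adamts1 by 1.24, while all 3 were still above mock (2.22-fold, 1.66-fold and 6.41-fold). Genes of GABA signalling were lower than at 60 min in 20 of 25 cases and presynaptic genes in 39 of 62.

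With an adjusted p under 0.05, the authors' deposited table calls 4837 genes for 120 min against mock (2653 up and 2184 down), computed on these same libraries. It shares 4240 calls of equal direction with limma, which is 98% of the limma calls and 87.7% of those in the authors' deposited table, and 0 calls of opposite direction. For Tfpi2 the authors' deposited table gives a log2 fold change of 6.81, and for Klf15 -1.55.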

How the data were processed

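RNA of 10 libraries, 2 for each of 5 groups, was measured. Per the submitters' processing notes, the authors used bcl2fastq, TopHat2 2.1.0, HTSeq and edgeR with the rn6 build; the sources used here do not say whether counting used strand. The authors deposited CPM values for 11615 genes, exonic lengths in bases, and log2 fold changes and p-values of their own comparisons. The table repeats the mock columns, and 6 copies were not used. In each library all deposited CPM values were whole multiples of 1 step (to 0.01 reads), with 9 to 20 reads at the lowest value, so genes of low counts are absent and depth limits low genes most.

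From the deposited CPM, values were scaled by TMM factors (30% of log ratios and 5% of means trimmed), transformed to log2(CPM + 1) and fitted with limma 3.58.1 in R 4.3.3, with an intensity trend, over all 10 libraries as 5 group means (5 residual and 6.57 prior degrees of freedom). A gene was called at an adjusted p (Benjamini-Hochberg over the 11615 genes) under 0.05, and printed CPM levels are TMM-scaled. P-values measure the spread between 2 libraries a group. The repeat numbers were not used as pairs, since the correlations of repeat differences ranged from -0.1636 to 0.2734.

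Named genes were the 20 largest rises and falls, the 10 largest in CPM in each direction, up to 6 called members of each of 54 lists by p (3 where none was called), and 8 activity markers, all above a mean log2 CPM of 1; other genes were named after their values were seen, and some genes that met the rule are not reported here. The members and lists were chosen with earlier results of these data known. Among the rows, 361 genes without a gene name and 22 symbols turned into serial numbers were counted and not named. Reads of near-identical copies (ribosomal proteins, metallothioneins, heat shock genes) may be shared, so those values are uncertain. Sequences came from RefSeq (GRCr8), matched by symbol, and were not used to place rn6 coordinates. Alternatives were other scalings, pseudocounts, filters, thresholds, limma-voom, fewer samples and a replicate block.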

Additional observations from a re-analysis of the deposited data

How the results depend on the processing

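None of the 346 genes named by the rule changed direction under an alternative that gave it a value (a filter at a mean of 5 CPM left out the lowest of them). Genes named outside the rule were not part of this count. The balance of the calls did turn: against mock 36.4% of calls were higher with library totals and 36.8% with upper-quartile factors, beside 54.7% with TMM, and against 60 min the lower calls became the larger group under both scalings. The genes higher at 120 min than in mock numbered 724 when a fold above 1.2 was required (limma treat), and those lower numbered 102 under that test, 3123 with library totals, 3106 with upper-quartile factors and 1090 at an adjusted p under 0.01. Against 60 min the test of a fold above 1.2 left 544 higher and 149 lower genes, and an adjusted p under 0.01 left 1006 lower ones. Leaving out 1 library gave 1666 to 2524 higher and 1106 to 2252 lower genes against mock, and 1597 to 2431 higher and 1095 to 2153 lower against 60 min. A library left alone in its group was assumed to vary like those of the other groups. With the replicate block 2341 genes were higher and 1946 lower, and all 346 named genes kept their call; the numbers were not shown to pair the libraries. The fits with limma-voom (2373 and 1942), with only the 2 groups (2756 and 2291) and with pseudocounts of 0.1 and 5 stayed within 1.5 times. Of the named genes 156 lost their call when a fold above 1.2 was required, 7 with library totals and up to 22 without 1 library. The planned count tests on reads recovered from the CPM steps, edgeR and DESeq2, were not run. With 2 libraries a group, differences near the smallest called folds (1.08 in each direction) rest on the scaling and on single libraries.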
